A study of Mus musculus with 6 samples.

Results

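The genes described here are 8 transcription factors that set or mark nephron identity: Hnf4a, Hnf4g, Pax2, Pax8, Sox9, Sox4, Esrrb and Esrrg. They were chosen by gene symbol with earlier results of these data known, and each symbol matched 1 identifier among the 55450 genes of the count table. All 8 passed the filter on low counts and were among the 16592 genes tested. The samples were kidney tissue of wild-type C57BL/6J male mice, bought at the age of 7 weeks and housed for 1 week before the experiment. The day 0 group (n = 3) is the control, and its libraries carry the label 20% PEG. The day 21 group (n = 3) received adenine (0.16 g/kg) together with potassium oxonate (2.4 g/kg) by gavage every day for 21 days, which raises uric acid and injures the kidney. The study kept 6 mice per group, of which 3 were sequenced, and each library came from 1 mouse. Each group was killed at its own day, so the day 21 mice were also older, and only day 0 libraries carry the PEG label. Age, vehicle and daily gavage therefore cannot be told apart from adenine and potassium oxonate.

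Transcription factors of these families decide which segment of the nephron a cell becomes and keep it that way. HNF4 nuclear receptors drive the program of the proximal tubule, paired-box factors build the nephron from its progenitors and persist in adult tubules, and estrogen-related receptors run oxidative and transport genes of energy-hungry segments. SOX9 and SOX4 act in the developing nephron, and SOX9 returns in adult tubules that repair an injury. The comparison asks how the expression of these factors stood in kidneys after 21 days of the hyperuricemia model against day 0.

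The 6 libraries held 10963849 to 14333311 counts, and 3 counts, taken as the smallest visible level, equalled 0.179 to 0.309 CPM, the normalized count used here (the count of a gene scaled by the TMM size of its library). Mitochondrially encoded genes took 9.39% to 9.86% of counts on day 0 and 3.82% to 4.42% on day 21. Of all genes tested, 5822 were differentially expressed genes (DEGs), that is, had an adjusted p under 0.05 in edgeR's quasi-likelihood test and a fold over 1.5. This is 35.1% of genes tested, with 19.6% higher and 15.5% lower on day 21, and 57.1% of genes tested had groups that did not overlap. The median log2 fold change (day 21 over day 0) of all genes tested was 0.03.

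Of the 8 factors, 6 were DEGs. Esrrb, Hnf4a, Esrrg and Hnf4g fell, Sox9 and Sox4 rose, and Pax2 and Pax8 were not called. The share of DEGs among the 8 stands beside 35.1% for all genes. In 7 of the 8, every mouse of one group lay above every mouse of the other, the exception being Pax2, beside 57.1% of all genes. Since the 8 were chosen with earlier results of these data known, both shares are only a description. The plot of normalized counts by mouse shows all 8 genes.

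**Figure D1:**
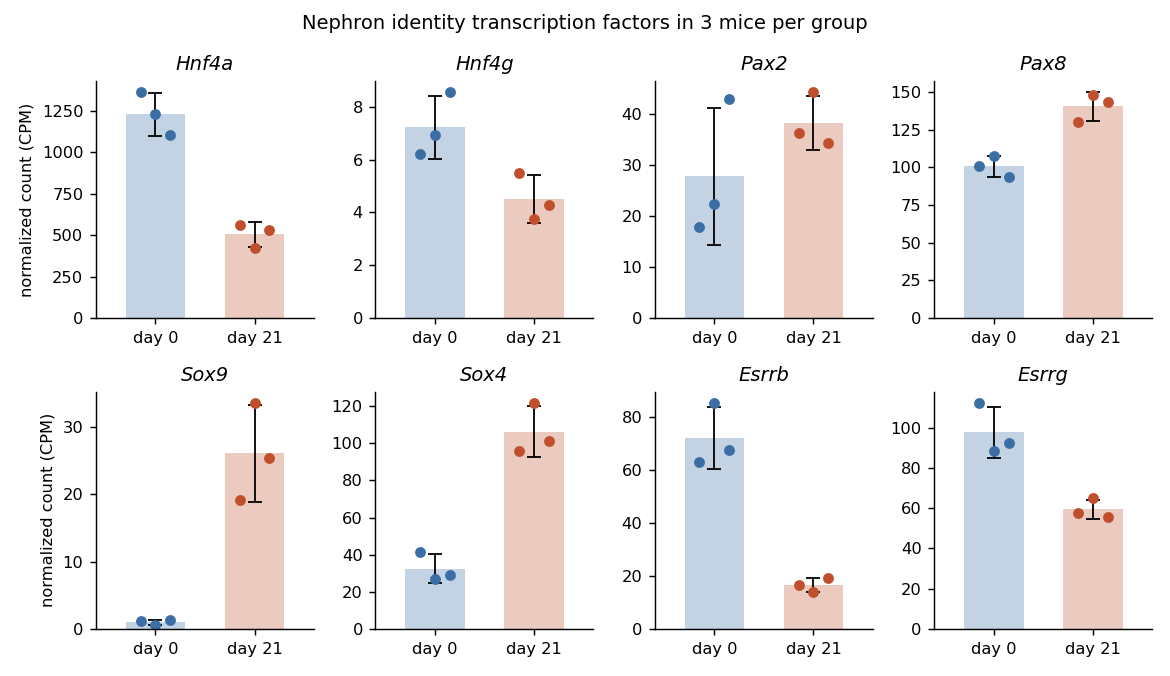
Normalized counts (CPM, linear axes from 0, 1 panel per gene) of the 8 factors on day 0 and day 21; points are mice (n = 3 per group), bars are group means and error bars are SD. Hnf4a, Hnf4g, Esrrb and Esrrg were lower in all 3 day 21 mice than in any day 0 mouse, Sox9, Sox4 and Pax8 were higher, and the Pax2 groups overlapped.

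Hnf4a encodes the nuclear receptor that keeps proximal tubule cells differentiated. The gene (ENSMUSG00000017950.16, GRCm38, chr2:163506808-163572910, plus strand) held 13589, 14913 and 10705 counts in the day 0 mice and 7971, 7086 and 8672 in the day 21 mice. Scaled to CPM, these were 1361, 1227 and 1102 on day 0 and 563, 422 and 530 on day 21. The lowest day 0 mouse was still far above the highest day 21 mouse. The mean fell from 1230 ± 129 to 505 ± 73.6 CPM (SD, n = 3), a log2 fold change of -1.28 (SE 0.14, 95% interval -1.60 to -0.97, adjusted p = 5.3e-05).

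Hnf4a has more than 1 annotated start site, and the counts, which are summed per gene, cannot tell their transcripts apart. Both promoter windows that RefSeq gives on GRCm38.p6 are shown since they belong to the most abundant of the 8 factors. Each spans 250 bases before and 50 after the start, on the plus strand. The first is chr2:163506607-163506906 and the second chr2:163546905-163547204. Neither holds a match to the motifs searched on both strands, so no base is in capitals.
Hnf4a, first start: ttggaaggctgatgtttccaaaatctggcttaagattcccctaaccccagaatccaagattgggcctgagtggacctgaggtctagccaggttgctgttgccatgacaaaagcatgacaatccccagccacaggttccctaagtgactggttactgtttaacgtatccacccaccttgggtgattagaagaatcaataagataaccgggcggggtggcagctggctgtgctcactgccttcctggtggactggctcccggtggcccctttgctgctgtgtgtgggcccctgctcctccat
Hnf4a, second start: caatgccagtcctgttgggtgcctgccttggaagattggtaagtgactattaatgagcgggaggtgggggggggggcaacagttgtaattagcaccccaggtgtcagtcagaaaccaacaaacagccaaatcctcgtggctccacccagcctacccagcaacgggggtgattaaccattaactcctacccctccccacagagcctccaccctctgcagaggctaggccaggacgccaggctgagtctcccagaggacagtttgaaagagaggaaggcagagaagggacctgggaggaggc
The HNF4 motif (CAAAGTCCA) is in 0.475% of 32851 RefSeq mouse promoters and in none of the 13 windows of these factors.

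An antisense RNA, Hnf4aos, lies across the Hnf4a locus with no exon in common. It held 44, 107 and 59 counts in the day 0 mice, against 28, 12 and 32 in the day 21 mice, and was a DEG with a log2 fold change of -2.06 (SE 0.41, adjusted p = 0.0023). Both genes of this locus thus had lower values in all 3 day 21 mice. Since their exons share no base, reads from spliced transcripts of the 2 genes differ in position. Whether the counting used strand is not given. Unspliced reads of one gene that fall in exons of the other therefore cannot be told apart, and their part in the Hnf4aos counts was not tested.

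Hnf4g encodes the paralog of HNF4A in kidney and gut, and it was expressed at a much lower level. The gene (ENSMUSG00000017688.14, chr3:3508030-3658052, plus strand) held 62, 84 and 83 counts on day 0, against 78, 63 and 70 on day 21, equal to 6.21, 6.91 and 8.54 CPM against 5.51, 3.75 and 4.28 CPM. The gap between the groups was small, and the highest day 21 mouse lay just under the lowest day 0 mouse. The mean fell from 7.22 ± 1.2 to 4.51 ± 0.899 CPM (SD, n = 3), a log2 fold change of -0.68 (SE 0.24, adjusted p = 0.042). The call was lost without day 0 replicate 2 (-0.71, adjusted p = 0.068), day 0 replicate 3 (-0.56, adjusted p = 0.11), day 21 replicate 2 (-0.56, adjusted p = 0.14) or day 21 replicate 3 (-0.64, adjusted p = 0.13), all from the same edgeR test. It was also lost under upper-quartile scaling (-0.60, adjusted p = 0.068) and library size alone (-0.29, adjusted p = 0.32).

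Within a mouse, the day 0 libraries held 219, 178 and 129 Hnf4a counts per Hnf4g count and the day 21 libraries 102, 112 and 124. The ratio did not overlap between groups and was lower by 0.61 on the log2 scale (exact permutation test, two-sided p = 0.1, 0.125 adjusted over 5 ratios; 0.1 is the smallest p that 3 mice against 3 can give). The longest word that annotated transcripts of both genes share is 17 bases (catctgctgcttggagc), and no 50-base word of Hnf4a or Hnf4g occurs in another gene.

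Pax2 encodes a paired-box factor of the ureteric bud and the condensing mesenchyme, retained in adult collecting duct. Its locus (ENSMUSG00000004231.15, chr19:44756045-44837871, plus strand) held 178, 273 and 418 counts on day 0, against 515, 743 and 560 on day 21, or 17.8, 22.5 and 43.0 CPM against 36.3, 44.3 and 34.2 CPM. The day 0 mice spread widely, and day 0 replicate 3 lay above 2 of the 3 day 21 mice. The means were 27.8 ± 13.4 and 38.3 ± 5.28 CPM (SD, n = 3), with a log2 fold change of 0.47 (SE 0.27, 95% interval -0.14 to 1.07, adjusted p = 0.19; exact permutation p = 0.3).

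Pax2 turned on that 1 mouse. Without day 0 replicate 3 the edgeR log2 fold change was 0.90 (adjusted p = 0.0022), a DEG, and with library size alone it was 0.85 (adjusted p = 0.025). Wnt4, a signal that makes progenitors epithelial, followed the same order in the day 0 mice, with 13, 80 and 147 counts, and held 176, 332 and 294 on day 21. Urothelial markers summed to 2.50, 9.05 and 14.6 CPM in the day 0 mice and 7.76, 4.47 and 9.23 CPM in the day 21 mice, and their part in the Pax2 values was not tested.

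Pax8 encodes a paired-box factor found along the whole tubule epithelium. The gene (ENSMUSG00000026976.15, chr2:24420560-24475599, minus strand) held 1007, 1306 and 909 counts on day 0, against 1839, 2480 and 2345 on day 21, which is 100.8, 107.5 and 93.5 CPM against 129.8, 147.7 and 143.4 CPM. Every day 21 mouse lay above every day 0 mouse. The means were 101 ± 6.97 and 140 ± 9.35 CPM (SD, n = 3), and the log2 fold change was 0.48 (SE 0.11, adjusted p = 0.0047). The 1.39-fold difference passed the test but stayed under the fold of 1.5 that a DEG needs. With library size alone it was 0.87 (adjusted p = 0.00011) and a DEG.

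Pax8 shares 367 exon bases (6.06%) with Gm13415, a noncoding gene on the other strand, whose log2 fold change was 0.33 (adjusted p = 0.056, no DEG). The day 0 libraries held 5.66, 4.78 and 2.17 Pax8 counts per Pax2 count and the day 21 libraries 3.57, 3.34 and 4.19. These ranges overlapped (log2 difference -0.08, exact permutation p = 0.9, 0.9 adjusted over 5 ratios), and the sign turned without day 0 replicate 1 (0.19) or day 0 replicate 2 (0.07). The 2 paired-box genes share a word of at most 27 bases (ggcaggtactacgagactggcagcatc), well under a 150-base read.

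Sox9 encodes an HMG-box factor of the ureteric tip and of regenerating tubule cells, and it showed the largest change of the 8. The gene (ENSMUSG00000000567.5, chr11:112782224-112787760, plus strand) held only 11, 7 and 13 counts on day 0, against 272, 563 and 416 on day 21. In CPM these were 1.10, 0.576 and 1.34 against 19.2, 33.5 and 25.4. The groups were separated by more than an order of magnitude. The mean rose from 1.01 ± 0.390 to 26.1 ± 7.19 CPM (SD, n = 3), a log2 fold change of 4.72 (SE 0.32, 95% interval 4.01 to 5.43, adjusted p = 3e-06), which is 26.4-fold. By absolute log2 fold change Sox9 ranked 111 of 16592 genes tested. Sox9 passed the filter through its day 21 mice, since day 0 counts were near the minimum of 10.

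Sox4 encodes a SOXC-group factor needed for nephron formation. The gene (ENSMUSG00000076431.4, chr13:28948919-28953713, minus strand, 1 exon) held 412, 324 and 284 counts on day 0, against 1355, 2043 and 1654 on day 21, or 41.2, 26.7 and 29.2 CPM against 95.6, 121.7 and 101.2 CPM. All 3 day 21 mice lay above all day 0 mice. The mean rose from 32.4 ± 7.79 to 106 ± 13.7 CPM (SD, n = 3), a log2 fold change of 1.72 (SE 0.17, adjusted p = 2.8e-05) or 3.28-fold.

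The Sox4 values are uncertain in one respect. A long noncoding gene on the opposite strand, Gm26735, covers 2616 of its 4795 exon bases (54.6%), and whether the counting used strand is not given in the sources used here. Gm26735 held 244, 205 and 207 counts on day 0, against 978, 1496 and 1154 on day 21, with a log2 fold change of 1.87 (SE 0.16, adjusted p = 1.2e-05). Between 1.37 and 1.69 Sox4 counts fell on each Gm26735 count in all 6 mice, and reads of the pair cannot be told apart. Summed, the 2 genes had a log2 ratio of mean CPM of 1.78.

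Sox9 and Sox4 rose by unequal amounts. The day 0 libraries held 37.5, 46.3 and 21.8 Sox4 counts per Sox9 count and the day 21 libraries 4.98, 3.63 and 3.98, a log2 difference of -2.94 (exact permutation p = 0.1, 0.125 adjusted over 5 ratios). The longest word in common was 20 bases (aggaggcggagcggctgcgc). Set against the proximal factor, 1 Sox9 count stood beside 823 to 2130 Hnf4a counts in the day 0 mice and beside 12.6 to 29.3 in the day 21 mice. The log2 ratio of Sox9 to Hnf4a differed by 5.96 (exact permutation p = 0.1, 0.125 adjusted over 5 ratios). Both ratios rest on 7 to 13 Sox9 counts in the day 0 mice. Sox9 passed the filter through its day 21 mice, so both ratios are only a description.

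Esrrb encodes an estrogen-related orphan receptor, known from pluripotent cells and expressed in the distal nephron. The gene (ENSMUSG00000021255.17, chr12:86361117-86521628, plus strand) held 631, 1036 and 658 counts on day 0, against 235, 232 and 316 on day 21, equal to 63.2, 85.3 and 67.7 CPM against 16.6, 13.8 and 19.3 CPM. The groups were far apart. The mean fell from 72.0 ± 11.7 to 16.6 ± 2.75 CPM (SD, n = 3), a log2 fold change of -2.12 (SE 0.16, 95% interval -2.48 to -1.76, adjusted p = 6.4e-06), the largest fall of the 8, at 4.35-fold.

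Esrrg encodes a receptor that drives mitochondrial genes in kidney, heart and muscle. The gene (ENSMUSG00000026610.13, chr1:187608791-188214885, plus strand) held 1122, 1076 and 897 counts on day 0, against 820, 1089 and 913 on day 21. The raw counts of the groups overlap, while the CPM values do not, with 112, 88.5 and 92.3 on day 0 against 57.9, 64.9 and 55.8 on day 21. The mean fell from 97.7 ± 12.8 to 59.5 ± 4.73 CPM (SD, n = 3), a log2 fold change of -0.71 (SE 0.12, adjusted p = 0.00097). With library size alone as the scaling it was -0.33 (adjusted p = 0.055) and no DEG, and under that scaling the median of all genes moved to 0.42.

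The first Esrrb start is shown since it holds the single motif match among the 13 windows. It spans chr12:86360867-86361166 (GRCm38.p6, plus strand), and capitals mark a SOX match (ACAATG), read on the minus strand.
Esrrb, first start: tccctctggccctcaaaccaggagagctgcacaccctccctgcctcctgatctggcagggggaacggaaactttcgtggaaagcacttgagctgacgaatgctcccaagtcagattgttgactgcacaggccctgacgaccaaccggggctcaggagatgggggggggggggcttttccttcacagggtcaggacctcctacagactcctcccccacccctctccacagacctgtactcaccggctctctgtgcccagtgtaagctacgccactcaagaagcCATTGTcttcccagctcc
The match begins at position 32 from the start, and the same letters are in 12.6% of promoters. Neither the ESRR motif (TCAAGGTCA, 0.423% of promoters) nor the shorter nuclear receptor half-site within it (AAGGTCA, 4.72% of promoters) was found in any of the 13 windows of 6 of the factors. No window was used for Hnf4g and Sox9.

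Esrrb fell more than Esrrg. The libraries held 1.78, 1.04 and 1.36 Esrrg counts per Esrrb count on day 0 and 3.49, 4.69 and 2.89 on day 21, a log2 difference of 1.41 (exact permutation p = 0.1, 0.125 adjusted over 5 ratios). The 2 transcripts share at most 17 bases in a row (aatgaatgtgagatcac).

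**Figure D2:**
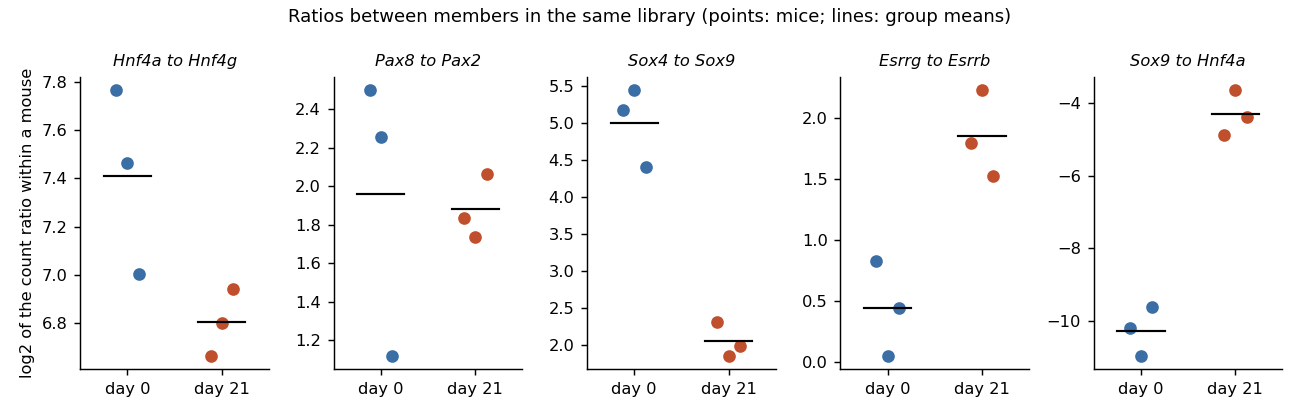
Log2 of the count ratio between 2 factors in the same library, 1 panel per pair, on day 0 and day 21; points are mice (n = 3 per group) and lines are group means. The groups are separate in the panels of Hnf4a to Hnf4g, Sox4 to Sox9, Esrrg to Esrrb and Sox9 to Hnf4a, and overlap for Pax8 to Pax2, where the day 0 mice spread from 2.17 to 5.66 counts per count.

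Divided by exon length, so that genes can be compared, the order of levels also changed. On day 0 the mean level per kilobase of exon (RPKM, which is CPM divided by exon length) were 255 for Hnf4a, 16.6 for Pax8, 15.7 for Esrrg, 11.9 for Esrrb, 6.75 for Sox4, 5.13 for Pax2, 2.75 for Hnf4g and 0.243 for Sox9. The ranges of Pax8 and Esrrg overlapped, as did those of Sox4 and Pax2, while every other neighbour in that order was separate. On day 21 the order was Hnf4a at 105, Pax8 at 23.1, Sox4 at 22.1, Esrrg at 9.59, Pax2 at 7.08, Sox9 at 6.30, Esrrb at 2.74 and Hnf4g at 1.72 RPKM. There Pax8 overlapped Sox4 and Pax2 overlapped Sox9. Sox9, the lowest of the 8 on day 0, thus stood above both Esrrb and Hnf4g on day 21. Hnf4a made up 82.5%, 81.3% and 79.4% of the summed RPKM of the 8 genes in the day 0 mice and 63.5%, 52.2% and 60.7% in the day 21 mice.

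A lower count in kidney tissue may reflect fewer cells of a type or less RNA per cell, which cannot be told apart in these bulk samples. Markers of other cell types moved between the groups. Leukocyte markers rose in 6 of 6 tested genes (summed level 117 to 138 CPM on day 0, 487 to 669 on day 21), as did fibroblast and pericyte markers in 6 of 6 (198 to 247 against 533 to 855 CPM). The latter count was 3 without day 21 replicate 1 or day 21 replicate 3, and the groups of Pdgfra, Dcn and Acta2 overlapped. Endothelial markers fell in 2 of 6, podocyte markers in 3 of 4 and collecting duct markers in 4 of 5. The 7 epithelial markers, by contrast, summed to 1822 to 2132 CPM on day 0 and 1812 to 2258 on day 21, with 3 of 7 higher. How evenly these markers cover the segments of the tubule was not tested. Divided by that epithelial sum within each mouse, the log2 difference was -1.32 for Hnf4a, -0.71 for Hnf4g, -0.74 for Esrrg, -2.15 for Esrrb, 1.70 for Sox4, 4.64 for Sox9, 0.45 for Pax8 and 0.53 for Pax2. Each had an exact permutation p = 0.1 except Pax2 (p = 0.4). That sum is mostly Cdh16 (50.9% to 69.6% of it), a cadherin also listed as linked to Pax2 and Pax8, which differed by -0.30. The other 6 markers summed to 611 to 647 CPM on day 0 and 792 to 1109 on day 21. Divided by those 6, the log2 difference was -1.83 for Hnf4a, -1.23 for Hnf4g, -1.25 for Esrrg, -2.66 for Esrrb, 1.19 for Sox4 and 4.13 for Sox9 (exact permutation p = 0.1 each). For Pax8 it was -0.06 (p = 0.5) and for Pax2 0.01 (p = 1) in the same exact permutation test, so their values above depend on the scale.

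Other transcription factors of the nephron were read from a list of 32, of which 30 were tested and Six2 and Eya1 were not. In this list 5 rose, 9 fell and 16 were no DEGs, with a median log2 fold change of -0.30 beside 0.03 for all genes. Without day 0 replicate 2, 3 rose. All 3 proximal tubule factors fell. These were Ppara (-1.97, SE 0.21), a regulator of fatty acid oxidation, Nr1h4 (-1.20, SE 0.22), the bile acid receptor, and Maf (-1.01, SE 0.11).

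Among 11 factors listed for the loop and distal tubule, Irx1 (-1.06), Sim2 (-0.86) and Esrra (-0.73) fell and Tfap2a rose (1.00). Esrra is also listed among the oxidative genes below, and whether its RNA came from these segments was not tested. Esrra is the remaining estrogen-related receptor, so all 3 genes of that family were lower on day 21, in the order Esrrb, Esrra, Esrrg by size of the log2 fold change. Among 11 collecting duct factors, the epithelial regulators Elf3 (1.41), Ehf (0.70) and Grhl2 (0.59) and the homeobox gene Hoxb7 (1.01) rose, while Hmx2 fell by 1.02 on the log2 scale. The remaining 6 of these factors were not called. Collecting duct markers that are no transcription factors fell in 4 of 5, summing to 487 to 619 CPM on day 0 and 241 to 285 on day 21. Of 5 progenitor factors tested, Sall1 (-0.75) and Lhx1 (-0.75) fell and none rose.

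**Figure D3:**
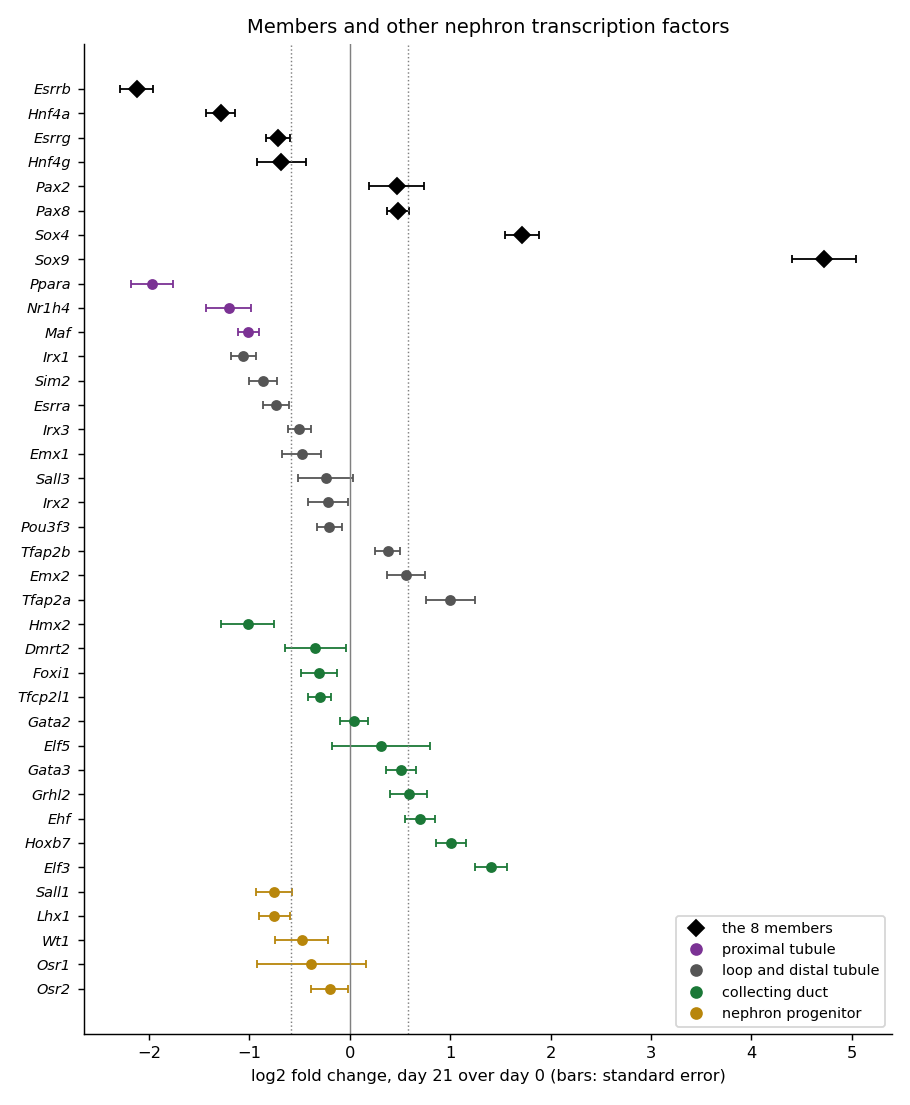
Log2 fold change (day 21 over day 0) of the 8 factors and of 30 other nephron transcription factors, with bars for SE; colours give the segment and dotted lines the 1.5-fold limit. Sox9 at 4.72 and Sox4 at 1.72 lie above every other factor drawn, and Esrrb at -2.12 and Ppara at -1.97 lie lowest.

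In the SOX family, 9 of 17 other genes were tested, of which 3 rose and 2 fell. Sox11, like Sox4 a SOXC gene, held 0, 1 and 2 counts on day 0, against 32, 64 and 63 on day 21, and Sox8, a relative of Sox9, held 0, 3 and 2 against 17, 34 and 24. No day 0 mouse exceeded 3 counts of either gene, so no fold is given. Sox12, the remaining SOXC gene, rose (0.63, SE 0.16, adjusted p = 0.01), and Sox6 (-0.77) and Sox13 (-0.62) fell. Sox11 and Sox8 passed the filter through their day 21 mice, so the counts of this family are a description. None of 7 other PAX genes passed the filter.

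Nuclear receptors other than the 4 described numbered 45, of which 36 were tested, 13 fell and 1 rose (median -0.32). Ppara, Nr1h4 and Esrra, already counted as falls among the other nephron factors, are counted again here. The largest falls were in Ppara (-1.97), Nr1d1 (-1.36), a repressor of the circadian clock, and Nr1h4 (-1.20). The exception was Nr2f1 (1.38, SE 0.44, adjusted p = 0.027), at 6 to 17 counts on day 0. The call was lost, with no other receptor called higher, in the same edgeR test without day 0 replicate 2, day 21 replicate 1 or day 21 replicate 3. With library size alone, 5 fell and 8 rose. Of 13 listed cofactors, not all of them cofactors of nuclear receptors, 5 fell and none rose, with a median of -0.50. Ppargc1b, a coactivator of estrogen-related receptors, fell most (-1.24, SE 0.29, adjusted p = 0.0052), and Ncor1, the cofactor with the most counts of the 5, fell by 0.64 on the log2 scale. Ncoa3 (-0.66) and Ncoa2 (-0.60), coactivators of the p160 group, fell together with Ncoa1 (-0.60).

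Of 16 genes of the proximal tubule, 15 fell and 1, Cdhr5, did not (0.07, adjusted p = 0.67), with a median of -1.92. The largest falls were in Pck1 (-2.69, SE 0.34) and G6pc (-2.49, SE 0.40), enzymes of gluconeogenesis. The urate transporter Slc22a12 (-2.55, SE 0.24) lay between them. The day 0 mice spread widely, with 1372, 3345 and 3792 CPM of Pck1 and 361, 827 and 1178 CPM of G6pc. The phosphate transporter Slc34a1, with the most counts of the list, fell from 4855 ± 550.3 to 878 ± 26.5 CPM (SD, n = 3). Its log2 fold change of -2.47 (SE 0.13) was close to that of G6pc. Cdhr2, at -0.65, fell least and its groups overlapped, while the summed counts of the list fell more than Hnf4a. Hnf4a counts were 6.61%, 4.75% and 4.38% of the summed counts of the 16 genes in the day 0 mice and 8.17%, 8.25% and 8.37% in the day 21 mice (log2 difference 0.68, exact permutation p = 0.1).

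RefSeq gives a promoter for 14 of the 16 proximal genes. The HNF4 motif was in 1 of the 14 (Pdzk1), against 0.555% of 27025 genes. These are counts of letters in a short window and say nothing of binding.

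Of 13 genes of the loop and distal tubule, 7 fell and 1 rose, with a median of -0.85. Egf, made in the distal convoluted tubule and loop, fell by 4.23 on the log2 scale, and Slc12a1, the loop's salt transporter, by 1.65. Pvalb, the calcium-binding protein of the early distal tubule, held 214, 317 and 122 counts on day 0, against 0, 0 and 1 on day 21. Umod, with the most counts, differed by -0.45 and was no DEG, while Cldn16, a claudin of the same loop segment, rose (0.82, adjusted p = 0.0066). Of 7 genes linked to Pax2 and Pax8, Lhx1 fell, none rose, and the median was -0.27. In the edgeR test Wnt4 (1.13, SE 0.54, adjusted p = 0.12) and Gata3 (0.51, adjusted p = 0.017) were higher but no DEGs. Every other gene of this list had a negative log2 fold change. Lhx1, Gata3 and Wt1 are also listed among the other nephron factors.

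Of 8 oxidative genes linked to estrogen-related receptors, 7 fell, with a median of -0.97. Esrra, itself one of these receptors, is among them. Perm1, a muscle and kidney partner of these receptors, fell by 2.56 on the log2 scale, Acadm, of fatty acid oxidation, by 2.48, and Pdk4, which restrains pyruvate use, by 2.27. The remaining gene, Idh3a, differed by -0.56 (adjusted p = 0.0011), under the fold of 1.5. The half-site AAGGTCA was in 2 of 7 promoters of these genes (Acadm and Perm1), against 5.38% of genes, and the ESRR motif TCAAGGTCA was in 0 of the 7.

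Genes listed for the injured tubule went in the same direction as Sox9 and Sox4, and the cells that held their RNA were not told apart. Of 16, 15 rose and 1, Itgb6, did not (0.31, adjusted p = 0.065), with a median of 3.15. Havcr1, the kidney injury molecule, rose by a log2 fold change of 8.07 (SE 0.48), Lcn2, a secreted injury protein, by 6.27 (SE 0.16) and Vcam1, an adhesion molecule, by 4.43 (SE 0.21). Spp1, with the most counts, rose by 4.29. The list summed to 3009 CPM in day 0 replicate 1, above the 1950 and 1587 CPM of the other day 0 mice, and to 25841 CPM or more in the day 21 mice. Sox9 was not highest in that day 0 mouse, and Sox4, at 41.2 CPM, was. Without it, 4 of the 8 factors fell and 2 rose, as with it.

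**Figure D4:**
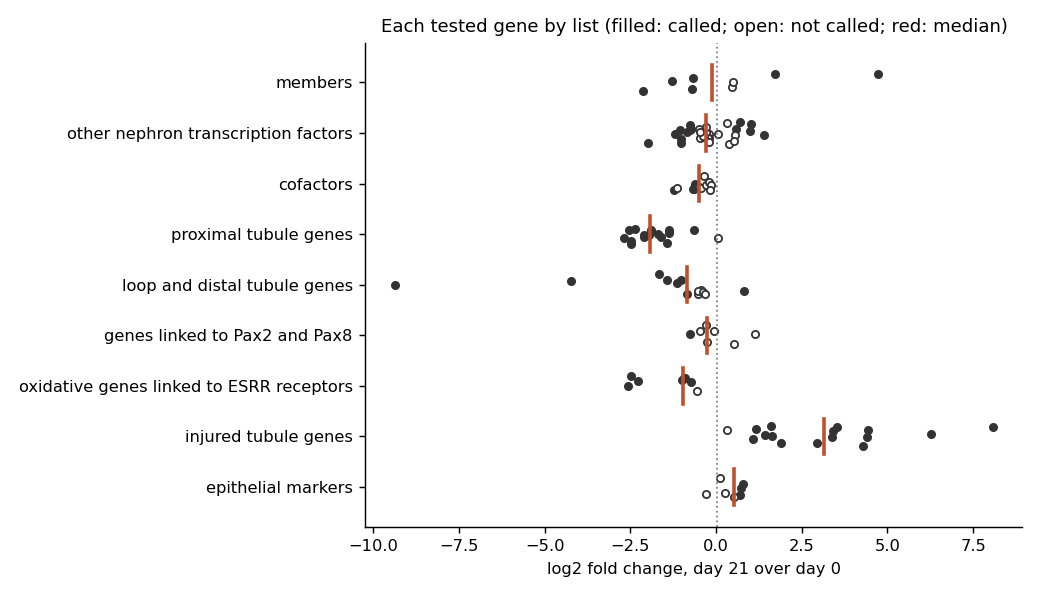
Log2 fold change (day 21 over day 0) of each tested gene, 1 row per list, with filled points for DEGs, open points for the rest and a red bar for the median. The proximal tubule genes lie around -1.92 and the injured tubule genes around 3.15, while the 8 factors spread from -2.12 to 4.72.

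The genes whose profile over the 6 mice lay nearest to each factor were found by the root-mean-square distance between centred log2 CPM values, over 13141 genes with a mean of at least 50 counts. The nearest to Hnf4a were the zinc and manganese transporter Slc39a8 (distance 0.060) and the peroxisome gene Pex11a (0.065). For Esrrb they were Sord (0.102) and Fbp1 (0.112), enzymes of sorbitol use and gluconeogenesis, and for Esrrg Foxo1 (0.064) and Got2-ps1 (0.070). Hnf4g lay nearest to Nceh1 (0.072) and Plekha8 (0.074).

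Among the factors that were higher or not called, Pax8 had the closest neighbours, Hace1 (0.021) and Washc1 (0.024). Sox4 lay nearest to Plch1 (0.048) and Slain1 (0.082), and Sox9, with fewer counts on day 0, to Adgra1 (0.209) and Fbn2 (0.210). For Pax2 they were Atp10b (0.094) and 4933439C10Rik (0.114). The neighbours of Sox9 had larger log2 fold changes, 5.11 for Adgra1 and 7.70 for Fbn2, beside 4.72 for Sox9. To compute the distances, 0.5 CPM was added before the log, which narrows differences at low levels. These distances describe likeness over 6 libraries and carry no test.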

How the data were processed

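Kidney RNA was converted to TruSeq libraries and sequenced as 2 × 150 bp reads. Per the labels, only RNA with an integrity number of at least 6.5 was used. TopHat and mm10 are named in the submitters' processing notes, with no version. The counting program and its strand setting are not given in the sources used here. The authors deposited raw counts per gene, whole numbers with no normalization, for each mouse, and every identifier matched GENCODE mouse release 21, which supplied symbols, positions and exons. Samples were grouped by their own labels. P-values set the difference between the groups against the spread between mice, within these 6 libraries.

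The counts were filtered with filterByExpr (minimum count 10, minimum total 15), scaled by TMM and compared with the quasi-likelihood test of edgeR 4.0.16 in R 4.3.3, without a replicate block. P-values were adjusted by the Benjamini-Hochberg method over all genes tested. DEGs needed a fold over 1.5 at an adjusted p under 0.05. CPM and RPKM (union of exons) were computed from the counts. Ratios within a mouse used a pseudocount of 0.5 on the log2 scale and a two-sided exact permutation test. Alternatives were DESeq2 1.42.0, limma 3.58.1 (voom), other scalings, filters and thresholds, a replicate block, and leaving out each mouse; 3 more were chosen after seeing the data, namely division by epithelial markers, the same without Cdh16, and sums with antisense genes. Floors of 3 counts and intervals cover counting error or the spread between mice only.

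The members and gene lists were chosen with earlier results of these data known, and the motifs after the files had been seen. Besides the 8 factors, named genes are the DEGs among the other nephron transcription factors, up to 3 DEGs with the largest change and the gene with the highest mean CPM of each other list, tested relatives, overlapping genes and the 2 nearest profiles. Wnt4, Cdhr2, Cdhr5, Cdh16, Pdgfra, Dcn, Acta2, Cldn16, Idh3a, Itgb6, Ncoa1, Ncoa2 and genes named for a motif match were picked after their values were seen. So were Cd3e, Cd79a, Gata3 and Wt1. A few genes of the lists are not reported here and stay out of the counts. Promoters came from RefSeq (GRCm38.p6), with windows for 6 of the 8.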

Additional observations from a re-analysis of the deposited data

How the results depend on the processing

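No factor changed sign under another test, scaling by library, filter or left-out mouse, and Pax8 turned to -0.06 when divided by the epithelial markers other than Cdh16. Leaving out each mouse in turn gave log2 fold changes of -1.37 to -1.17 for Hnf4a, -0.84 to -0.56 for Hnf4g, 0.22 to 0.90 for Pax2, 0.41 to 0.53 for Pax8, 4.41 to 4.97 for Sox9, 1.59 to 1.91 for Sox4, -2.24 to -1.98 for Esrrb and -0.78 to -0.62 for Esrrg. Among the 8, 3 to 4 fell and 2 to 3 rose. With library size alone the median of all genes moved to 0.42 and the share of higher genes among DEGs from 55.8% to 81.7%; 2 of the 8 fell and 4 rose, 8 other nephron factors rose and 4 fell, and 1 cofactor, 0 genes linked to Pax2 and Pax8, 4 oxidative genes and 5 other nuclear receptors fell, while 8 other nuclear receptors and 2 genes linked to Pax2 and Pax8 rose. With the limits at a fold over 2 and an adjusted p under 0.01, 2 of the 8 fell, 5 other nephron factors fell and 3 rose, and 1 cofactor, 0 genes linked to Pax2 and Pax8, 3 oxidative genes and 5 nuclear receptors fell, since the threshold itself is stricter. Cofactors that fell numbered 8 at any fold, 1 under upper-quartile scaling (where the median of all genes was 0.12), 3 at a mean of at least 50 counts and 3 to 5 without 1 mouse. Other nephron factors that rose numbered 8 at any fold and 3 to 6 without 1 mouse. Genes linked to Pax2 and Pax8 that fell numbered 1 to 2 without 1 mouse. Those that rose numbered 1 at any fold, under upper-quartile scaling, without a filter, with voom, with a replicate block and without day 0 replicate 3. Other SOX genes that rose numbered 1 at a mean of at least 50 counts, as fewer genes were tested. The log2 difference of the Pax8 to Pax2 ratio ran from -0.50 to 0.19 without 1 mouse, turning to 0.07 without day 0 replicate 2.

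Same-numbered mice of the groups had deviations correlated at -0.025, 0.173 and 0.098, so the numbers were not taken to pair the mice. With a replicate block 3 of the 8 fell and 2 rose, Hnf4g reaching -0.69 (adjusted p = 0.055); the ratios within a mouse are unchanged by pairing as means. The cause of these shifts was not tested. Counts were lowest for Hnf4g, at 62 to 84 a mouse, and for Sox9 on day 0, at 7 to 13.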
